A study of Homo sapiens with 6 samples.

Results

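The genes described here are 9 genes of MHC class I antigen presentation, chosen by name and found in all 6 count files, out of 47470 genes listed and 15298 tested. They are the heavy chain genes HLA-B, HLA-C, HLA-E and HLA-F, the light chain gene B2M, the peptide loading genes TAP1, TAP2 and TAPBP, and the class I transactivator gene NLRC5. RNA was taken from HEK293T cells, an established cell line of human embryonic kidney with the SV40 large T antigen. The VPA-treated cells had been exposed to VPA (valproic acid, which inhibits histone deacetylases) at 1 mM for 1 day, and the untreated cells had received nothing. The label for genotype reads WT in untreated cells and VPA-treated in treated cells, and no change to the genome is described. There were 3 libraries per condition, and nothing in the labels says whether they came from separate cultures, so that the p-values measure the spread between these libraries, which may be technical. All libraries come from 1 cell line, and no group that received only the solvent was labelled. In such bulk RNA a change in every cell and a larger change in a part of the cells cannot be told apart.

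MHC class I molecules show peptides from inside the cell to CD8 T cells and natural killer cells. A heavy chain pairs with beta-2 microglobulin, the product of B2M, in the endoplasmic reticulum. TAP1 and TAP2 form the transporter that brings in peptides from the proteasome, and tapasin, the product of TAPBP, holds empty heavy chains next to it. NLRC5 is a transactivator that binds, through other factors, to a promoter module made of the W/S, X1, X2 and Y boxes, and CIITA is its counterpart for class II genes. Many cultured lines hold class I transcription at a low level, and interferon is the best known signal that raises it.

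Total counts on genes lay between 18622267 and 18828495 per library. Normalized counts are counts divided by TMM-scaled library size at the mean depth, and differences were tested with edgeR's quasi-likelihood test with Benjamini-Hochberg adjustment over the 15298 tested genes. A gene is called higher or lower at an adjusted p under 0.05, and up-regulated when its log2 fold change is also at least 1. All 7 genes listed as marks of the line were counted, from VIM at 10739 ± 139 to PAX2 at 29.6 ± 0.39 normalized counts in untreated cells (SD, n = 3 each), and with VPA 5 were higher (led by NEFL, NEFM, KRT8 and PAX2, at log2 fold changes of 1.06, 0.87, 1.37 and 2.26) and 2 lower. The 14 leukocyte markers, listed because leukocytes carry high levels of MHC transcripts, summed to 71 to 85 counts in untreated and 74 to 89 in VPA-treated libraries. MS4A1 was at 0 in every library, CD3E had 1 count in all, and PTPRC had no count in untreated libraries and 5, 4 and 3 counts in VPA-treated ones. Most of these markers had too few counts to be tested, and CD68 was lower (log2 fold change -1.21, adjusted p = 9.97e-05 in edgeR). Without the filter on low counts PTPRC was called higher (adjusted p = 0.0019 in edgeR, 0.020 in DESeq2), as was CSF1R, with 2, 2 and 3 against 9, 7 and 7 counts (adjusted p = 0.033 in edgeR, 0.135 in DESeq2). The part of such transcripts in the results on MHC genes was not tested.

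The promoters of members are shown first, because the heavy chain genes are known to share control elements and the results below differ between genes with similar promoters. Promoter sequences from RefSeq on GRCh38.p14 were matched for 7 of the 9 genes, with no entry for HLA-E and NLRC5. The 250 bases before the start are given on the strand of the gene. HLA-B is read from chr6:31357180-31357429 (minus strand), HLA-C from chr6:31272093-31272342 (minus strand), HLA-F from chr6:29723184-29723433 (plus strand) and B2M from chr15:44711267-44711516 (plus strand). Capitals mark matches, on either strand, to CCAAT (the Y box core), TGACG (the X2 box core), GAANNGAAA (a short interferon response element core), GAAA repeated after any 2 bases (the long interferon core) and an NF-kB core (GGG, any 2 bases, T, any 2 bases, CC). Matches to both interferon cores can overlap, and the letters searched were settled after these sequences were seen.
HLA-B: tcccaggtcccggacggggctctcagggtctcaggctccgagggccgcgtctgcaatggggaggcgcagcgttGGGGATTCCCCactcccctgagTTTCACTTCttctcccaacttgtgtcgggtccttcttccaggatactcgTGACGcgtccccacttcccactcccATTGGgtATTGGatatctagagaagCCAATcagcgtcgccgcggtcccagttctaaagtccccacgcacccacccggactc
HLA-C: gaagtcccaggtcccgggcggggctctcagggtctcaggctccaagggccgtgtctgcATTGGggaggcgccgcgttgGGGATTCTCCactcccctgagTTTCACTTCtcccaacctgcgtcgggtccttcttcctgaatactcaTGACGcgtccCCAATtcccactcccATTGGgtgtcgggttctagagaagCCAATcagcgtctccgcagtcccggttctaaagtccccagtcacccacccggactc
HLA-F: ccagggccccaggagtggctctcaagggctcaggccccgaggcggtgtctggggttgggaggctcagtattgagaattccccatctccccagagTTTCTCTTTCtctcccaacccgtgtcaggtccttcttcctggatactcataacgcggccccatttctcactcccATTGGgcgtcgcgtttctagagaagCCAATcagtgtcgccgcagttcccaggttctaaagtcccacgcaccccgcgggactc
B2M: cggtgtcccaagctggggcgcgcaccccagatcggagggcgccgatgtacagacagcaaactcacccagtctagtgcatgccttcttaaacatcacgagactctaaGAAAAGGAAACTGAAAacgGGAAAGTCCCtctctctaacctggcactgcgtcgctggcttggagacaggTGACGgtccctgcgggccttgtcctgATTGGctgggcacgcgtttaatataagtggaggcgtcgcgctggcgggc

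TGACG followed 10 to 30 bases later by ATTGG, the order of the X2 and Y boxes, was found in HLA-B, HLA-C and B2M, and in 0.692% of the 35116 promoters of the table. HLA-F holds 2 matches to CCAAT and none to TGACG. The long interferon core, found in 3.02% of promoters, matched once in HLA-F and in overlapping pairs in B2M, TAP1 and TAPBP. HLA-B and HLA-C each hold the short core, found in 6.56% of promoters. TAP2 holds both, overlapping. The NF-kB core, found in 19.7% of promoters, matched in HLA-B, HLA-C, B2M, TAP1 and TAPBP. The matches in TAP1 are from the first of its promoter entries, and another entry of TAP1 held no match to any core. CCAAT alone was found in 32% and TGACG alone in 21.2%. The upstream bases of HLA-B were 89% identical to those of HLA-C and 79.8% identical to those of HLA-F, with 78.2% between HLA-C and HLA-F. A match describes letters in this window and not a bound site.

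In VPA-treated cells 8 of the 9 genes were higher and none was lower, and 3 of them, HLA-B, HLA-F and NLRC5, were up-regulated. Over all tested genes 32.9% were higher, 30.0% lower and 12.0% up-regulated. The 9 genes and the lists below were chosen with earlier results of these data known, so these comparisons are not independent tests. The median log2 fold change of the 9 genes was 0.59, against 0.0058 for all tested genes. In these 8 genes every VPA-treated library lay above every untreated one in normalized counts, which was so for 34.8% of all tested genes. All 9 passed the filter on low counts. Their raw counts summed to 11422, 11246 and 11600 in untreated and 19042, 17854 and 18846 in VPA-treated libraries, so that every treated library held more of these transcripts.

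**Figure D1:**
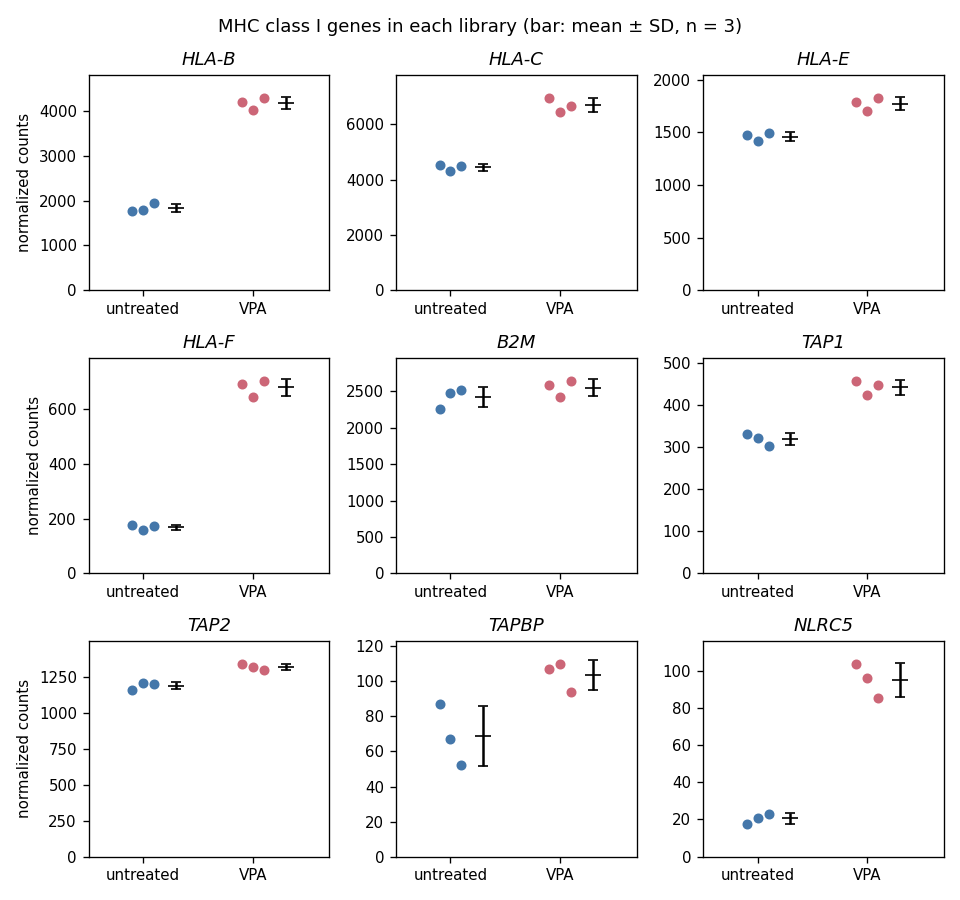
Normalized counts of the 9 genes in each library, with 1 panel per gene and each vertical axis starting at 0. Points are libraries, untreated in blue and VPA-treated in red, and the black bars give the mean and SD of 3 libraries. The groups are apart in every panel but that of B2M.

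HLA-B, a classical heavy chain gene, is encoded on the minus strand of chromosome 6 (31353875 to 31357179 in GRCh38.p14). The untreated libraries had 1773, 1795 and 1944 normalized counts of it, against 4207, 4024 and 4290 with VPA. The lowest treated library was thus well above the highest untreated one. The log2 fold change was 1.18 (SE 0.045) (2.27-fold, 95% interval 2.13 to 2.42, adjusted p = 2.68e-15 in edgeR).

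HLA-C, the neighbouring classical gene, on the same strand from 31268749 to 31272092, had the most counts of the 9. It had 4547, 4306 and 4480 normalized counts in untreated and 6960, 6457 and 6663 in VPA-treated libraries. It rose less than HLA-B, by 1.51-fold (95% interval 1.42 to 1.60), a log2 fold change of 0.59 (SE 0.041) (adjusted p = 6.04e-11 in edgeR). The log2 interval of HLA-C, 0.50 to 0.68, does not meet that of HLA-B, 1.09 to 1.28.

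HLA-E, which presents leader peptides of other class I chains to natural killer cells, lies from 30489509 to 30494194 on the plus strand of chromosome 6. It had 1471, 1413 and 1490 normalized counts in untreated and 1791, 1701 and 1827 in VPA-treated libraries. This was the smallest change of the 4 heavy chains, 1.22-fold (95% interval 1.14 to 1.30), a log2 fold change of 0.28 (SE 0.046) (adjusted p = 1.60e-05 in edgeR).

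HLA-F, a nonclassical gene whose product can reach the surface without peptide, lies from 29723434 to 29738532 on the plus strand of chromosome 6. It had 177, 159 and 171 normalized counts in untreated and 692, 644 and 702 in VPA-treated libraries, the largest change among the 4 heavy chains. It rose 4.02-fold (95% interval 3.61 to 4.46), a log2 fold change of 2.01 (SE 0.074) (adjusted p = 1.69e-15 in edgeR). The antisense transcript HLA-F-AS1 and pseudogenes overlap it on the opposite strand, and the strand setting of the counting is not given in the sources used here. HLA-F-AS1 was itself higher, with a log2 fold change of 0.66 (adjusted p = 1.15e-04 in edgeR).

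Among the counts on these 4 heavy chain genes, the share of each moved with treatment. HLA-F made up 2.14% ± 0.076 in untreated and 5.10% ± 0.094 in VPA-treated libraries, and HLA-B 23.2% ± 0.91 and 31.3% ± 0.50 (SD, n = 3 each). HLA-C went from 56.2% ± 0.83 to 50.3% ± 0.79 and HLA-E from 18.4% ± 0.025 to 13.3% ± 0.22. Heavy chain genes resemble each other, and reads that align to several places were not counted. Of all windows of 100 bases along the GENCODE 44 canonical transcript, 12% in HLA-B, 0.277% in HLA-C, 0.612% in HLA-E and 24.4% in HLA-F also occur in a transcript of another gene, for HLA-B and HLA-F mostly an overlapping pseudogene on the other strand. The alleles of the line can differ from the reference, which these shares do not cover.

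B2M, on chromosome 15 from 44711517 to 44718145 on the plus strand, was the 1 member with no call. It had 2260, 2481 and 2515 normalized counts in untreated and 2592, 2422 and 2642 in VPA-treated libraries, and the groups overlap. The log2 fold change was 0.077 (SE 0.048) (adjusted p = 0.164 in edgeR), and the 95% interval runs from 0.985-fold to 1.13-fold. That interval reaches past the size of the change in TAP2. The call depends on the settings. B2M was called higher with the replicate number as a block at TMM scaling (log2 fold change 0.078, adjusted p = 0.044 in edgeR), and also with upper quartile scaling, library totals and ribosomal protein scaling, with log2 fold changes of 0.14, 0.21 and 0.35. The median of all tested genes was at 0.071, 0.14 and 0.28 under the same 3 scalings.

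**Figure D2:**
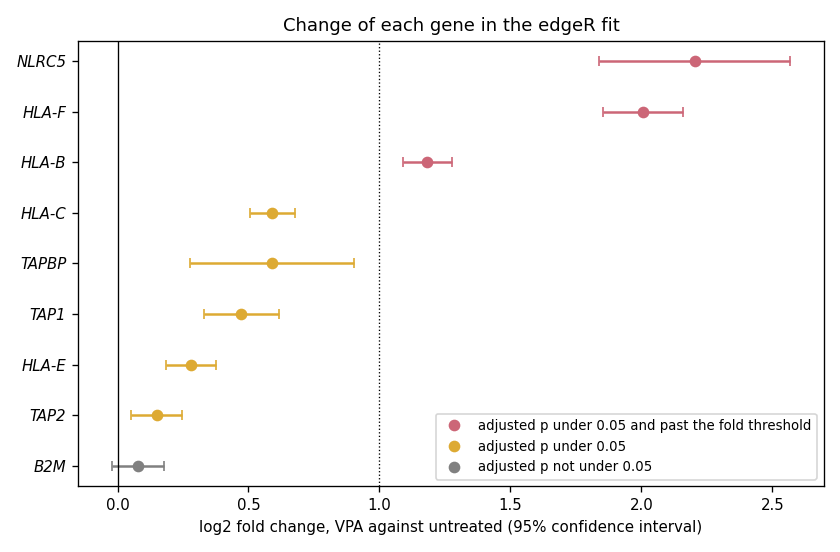
Log2 fold change of each of the 9 genes between VPA-treated and untreated cells, in order of size, with the 95% interval from the edgeR fit. The dotted line marks the fold threshold of 1, which NLRC5, HLA-F and HLA-B pass, and the interval of B2M, from -0.022 to 0.18, holds 0.

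The 3 peptide loading genes were higher by less than the fold threshold. TAP1 (minus strand of chromosome 6, 32845209 to 32853704) had 330, 322 and 303 normalized counts in untreated and 457, 423 and 447 in VPA-treated libraries. Its log2 fold change was 0.47 (SE 0.069) (1.39-fold, adjusted p = 4.17e-06 in edgeR). TAP1 shares its upstream region with PSMB9, which starts on the opposite strand and overlaps it in GENCODE 44.

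TAP2, the partner of TAP1 in the transporter, lies from 32821831 to 32838739 on the minus strand and had more counts than TAP1. It had 1162, 1207 and 1198 normalized counts in untreated and 1338, 1322 and 1294 in VPA-treated libraries. The groups do not overlap, but the change was the smallest of the 8 called, a log2 fold change of 0.15 (SE 0.046) (1.11-fold, adjusted p = 0.0078 in edgeR). With DESeq2 it was not called (log2 fold change 0.12, adjusted p = 0.081).

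TAPBP, from 33299694 to 33314078 on the minus strand, had few counts, 522 over the 6 libraries. It had 87.0, 67.0 and 52.5 normalized counts in untreated and 107, 110 and 93.8 in VPA-treated libraries. The untreated libraries were spread widely and the highest of them lay just under the lowest treated one. The log2 fold change was 0.59 (SE 0.15) (as a fold, 95% interval 1.21 to 1.87, adjusted p = 0.0019 in edgeR). In TAPBP 38.7% of the windows of 100 bases occur in a transcript annotated on the opposite strand. In TAP2 34.7% occur in a transcript of another gene annotated on the same strand. Reads there could be left out as ambiguous only if the annotation used for counting, which is not given, holds those transcripts. The share was 18.6% in TAP1 and 0 in B2M and NLRC5.

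NLRC5 lies on chromosome 16 from 56989557 to 57083520 on the plus strand, away from the MHC region. It had the fewest counts of the 9, with 17, 20 and 22 raw counts in untreated and 108, 100 and 89 in VPA-treated libraries. The corresponding normalized counts were 17.6, 20.9 and 23.1 against 103, 96.3 and 85.2, far apart. The log2 fold change of 2.20 (SE 0.18) was the largest of the 9 (4.61-fold, 95% interval 3.58 to 5.93, adjusted p = 4.82e-10 in edgeR). HLA-B, HLA-F and NLRC5 also passed glmTreat, a test against a log2 threshold of 1 rather than 0, which 7.51% of all tested genes did upward.

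A ratio of 2 genes within a library does not depend on the scaling, so each member was also set against B2M. The ratio of counts to B2M rose in every VPA-treated library above every untreated one for HLA-B, HLA-C, HLA-E, HLA-F, TAP1 and NLRC5, with differences in the mean log2 ratio of 1.11, 0.51, 0.20, 1.93, 0.40 and 2.14. For HLA-F the log2 ratio was -3.67, -3.96 and -3.88 in untreated and -1.91, -1.91 and -1.91 in VPA-treated libraries. For HLA-B it was -0.35, -0.47 and -0.37 in untreated and 0.70, 0.73 and 0.70 in VPA-treated ones. In TAP2 and TAPBP the groups overlapped, with differences of 0.071 and 0.54. The exact permutation test, two-sided, gave p = 0.1 for each of the 6 genes without overlap, the smallest p that 3 libraries against 3 allow, and p = 0.2 for TAP2 and TAPBP. Adjusted over the 8 ratios these exact p-values are 0.133 and 0.2, so that this design cannot pass 0.05.

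**Figure D3:**
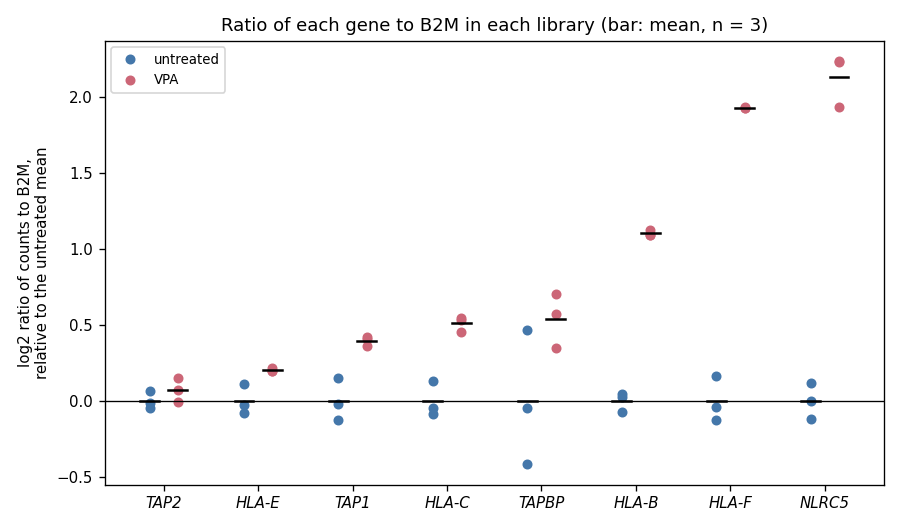
Log2 ratio of the counts of each gene to those of B2M in each library, set relative to the untreated mean of that gene. Points are libraries and bars means of 3, and only TAP2 and TAPBP have untreated points as high as a VPA-treated one.

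Levels of different genes were compared per length, as normalized counts per kilobase of the GENCODE 44 canonical transcript. In untreated cells the order of these levels was HLA-C at 2882 ± 80.6, B2M at 2565 ± 147, HLA-B at 1196 ± 60.5, HLA-E at 572 ± 15.7, TAP2 at 211 ± 4.24, TAP1 at 119 ± 5.15, HLA-F at 114 ± 6.17, TAPBP at 19.9 ± 5.02 and NLRC5 at 3.03 ± 0.41 per kilobase (SD, n = 3 each). TAP1 and HLA-F overlapped there, and the libraries of the other neighbours did not. In VPA-treated cells HLA-B, at 2717 ± 88.8 per kilobase, overlapped B2M at 2706 ± 122. HLA-F, at 459 ± 20.7 per kilobase, stood above TAP2 at 234 ± 3.88 and TAP1 at 165 ± 6.55. NLRC5 stayed the lowest of the 9 in both conditions, ranging from 12.6 to 15.3 per kilobase after treatment.

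**Figure D4:**
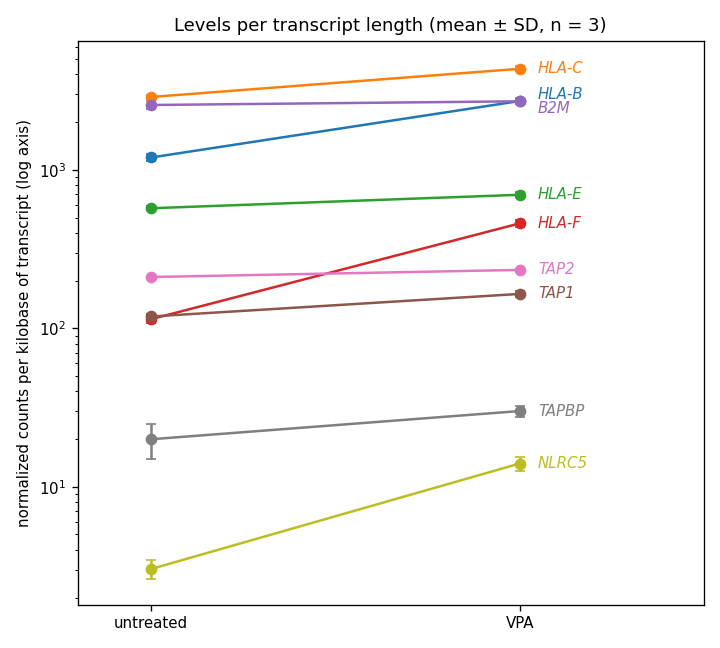
Normalized counts per kilobase of transcript in untreated and VPA-treated cells on a log axis, as mean and SD of 3 libraries. The line of HLA-F passes those of TAP1 and TAP2, that of HLA-B reaches B2M, and NLRC5 stays below all others.

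The other genes of the pathway were taken in lists. Of 23 other class I heavy chain and class I-like genes 11 were tested, of which 10 were higher, none was lower and 3 were up-regulated. The median of their log2 fold changes was 0.63. The 3 were CD1D, which presents lipids, RAET1G, a ligand of the receptor NKG2D, and the class I pseudogene HLA-L, with log2 fold changes of 1.42, 1.40 and 1.08. HLA-L resembles the heavy chain genes, so its counts are uncertain. The stress-induced NKG2D ligands MICA and MICB were higher by 0.63 and 0.86. The nonclassical gene HLA-G was at 0 in all 6 libraries.

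Of 17 genes listed for MHC class II molecules, which carry peptides to CD4 T cells, and their loading and control, 12 were tested. Of these 11 were higher and 9, with IFI30 among them, were up-regulated. The log2 fold changes of the 12 had a median of 1.24. HLA-DRA and HLA-DQA1 (3, 3 and 3 against 24, 28 and 25 counts) passed the filter on low counts only through the VPA-treated libraries. When each library had to hold 10 counts or more, 10 were tested, 9 higher and 7 up-regulated, with a median of 1.08. In that setting 4489 of all 13882 tested genes were higher and 8.49% up-regulated. HLA-DRA, the alpha chain of the DR molecule, had 3, 2 and 5 raw counts in untreated and 84, 87 and 92 in VPA-treated libraries. Its log2 fold change was 4.55 (SE 0.26) (adjusted p = 2.57e-12 in edgeR). HLA-DQA1, HLA-DPB1, HLA-DMA, HLA-DQB1, HLA-DMB, HLA-DPA1 and HLA-DRB1 were up-regulated by between 1.02 and 2.93 on the log2 scale, as was the lysosomal reductase gene IFI30 by 1.38. HLA-DPA1 and HLA-DRB1 lay at the fold threshold and fell just under it with DESeq2 (0.994 and 0.993) and with no filter (0.996 and 0.995), where 7 class II genes were up-regulated, as without untreated replicate 1. CIITA, the transactivator of these genes, had 8, 6 and 6 counts in untreated and 5, 8 and 5 in VPA-treated libraries and did not pass the filter on low counts. Tested without that filter it had a log2 fold change of -0.29 (adjusted p = 0.679 in edgeR). CD74, the chaperone of class II molecules, had 1, 2 and 0 counts in untreated and 4, 4 and 6 in VPA-treated libraries.

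Of the 4 tested immunoproteasome and activator genes 2 were higher and 1 was lower. PSMB9, an immunoproteasome subunit next to TAP1, had 2, 6 and 3 counts in untreated and 41, 31 and 40 in VPA-treated libraries, a log2 fold change of 3.19 (SE 0.34) (adjusted p = 4.73e-08 in edgeR). It passed the filter on low counts only through the VPA-treated libraries. When each library had to hold 10 counts or more, 3 genes of the list were tested, with 1 higher, 1 lower and none up-regulated. PSMB8, another immunoproteasome subunit, had 0, 2 and 0 counts in untreated and 5, 6 and 1 in VPA-treated libraries and did not pass the filter on low counts. Tested without that filter it had a log2 fold change of 2.25 (adjusted p = 0.049 in edgeR). With DESeq2 the value was 2.44 without a call (adjusted p = 0.184 in DESeq2). PSMB10, the third one, was lower, with a log2 fold change of -0.47 (adjusted p = 5.43e-05 in edgeR), and of the activator genes PSME1 was higher by 0.30 and PSME2 was at -0.067 without a call. All 7 genes of a list of constitutive proteasome subunits and other proteasome regulators were lower by TMM scaling. With ribosomal protein scaling only 1 was lower and 2 were higher, when 834 of all 15298 tested genes were lower and 9354 higher. PSMB6, PSMB5, PSMB7 and PSME3 led the list, with log2 fold changes by TMM scaling of -0.44, -0.37, -0.28 and -0.27. The median of the list lay 0.29 below that of all tested genes, a difference that a change of scaling hardly moves.

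Of 14 tested genes for loading and trimming partners 3 were higher and 6 lower, against 9 higher and none lower with ribosomal protein scaling. With that scaling 9354 of all 15298 tested genes were higher and 834 lower. ERAP2, an aminopeptidase that trims peptides in the endoplasmic reticulum, was the 1 up-regulated gene of this list, with 12.4, 17.8 and 19.9 normalized counts in untreated and 56.5, 55.9 and 50.7 in VPA-treated libraries (3.24-fold, adjusted p = 3.75e-07 in edgeR). LAP3, BLMH and GANAB had log2 fold changes of -0.27, -0.23 and -0.22.

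The factors that bind the class I and class II promoter module were not higher. Of 8 such genes 5 were lower and none was higher by TMM scaling, but with ribosomal protein scaling 2 were lower and 3 higher. Their median lay 0.25 below that of all tested genes, a difference that a change of scaling hardly moves. ATF1, NFYC, NFYA and RFX5 had log2 fold changes of -0.57, -0.47, -0.35 and -0.33. Of 14 tested interferon and NF-kB signalling genes 3 were higher and 4 lower, against 10 higher and 1 lower with ribosomal protein scaling. Under that scaling 9354 of all 15298 tested genes were higher and 834 lower. NFKB1, RELA, IRF9 and IFNGR2 had log2 fold changes of -0.48, -0.34, -0.53 and -0.28. None of the genes of these lists was up-regulated.

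**Figure D5:**
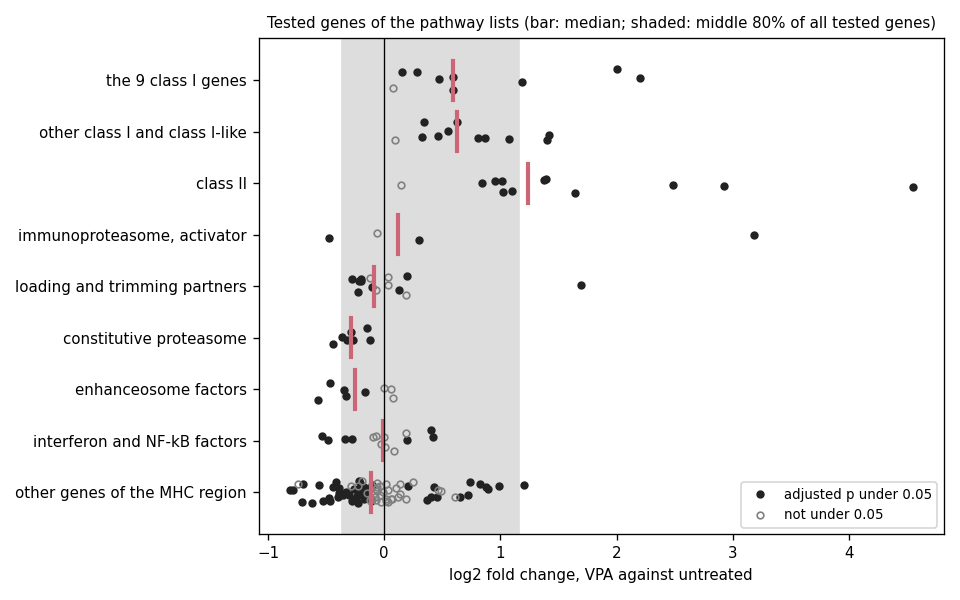
Log2 fold change of each tested gene in the pathway lists and in the rest of the MHC region, with filled points for an adjusted p under 0.05 and red bars for medians. The shaded band holds the middle 80% of all tested genes, from -0.36 to 1.16, and class II is the list whose median, 1.24, lies beyond it. That median was 1.08 when each library had to hold 10 counts or more, a setting for which no band was drawn.

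The neighbours of these genes on chromosome 6 were counted as well. Between the start of HLA-F and the end of TAPBP, from 29723434 to 33314078, 83 genes outside the lists were tested. By TMM scaling 13 of them were higher and 37 lower, but with ribosomal protein scaling 41 were higher and 9 lower. Over all 15298 tested genes these counts were 5037 and 4591 by TMM scaling, and 9354 and 834 with ribosomal protein scaling. Of the 83 genes 1 was up-regulated by TMM scaling, the non-coding HCG27 (log2 fold change 1.20), named after its value was seen. That count was 6 with ribosomal protein scaling, 4 with library totals and with no filter, 5 without untreated replicate 2, and 0 with DESeq2, with at least 10 counts in every library and without untreated replicate 1. Over all tested genes 12.0% were up-regulated by TMM scaling and 8.49% to 16.5% in these other settings. The median log2 fold change of the 83 genes by TMM scaling was -0.11, or 0.12 below that of all tested genes. A change of scaling hardly moves that difference.

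The median profile of the 9 genes over the 6 libraries was 0.013, -0.0083 and 0.019 in untreated and 0.65, 0.54 and 0.49 in VPA-treated libraries, as log2 relative to the untreated mean. Of 11058 other genes that averaged 100 or more normalized counts, the 5 nearest to it were CA2, CARD10, HEMK1, PANX2 and DLG4, at Euclidean distances of 0.075, 0.078, 0.082, 0.083 and 0.097 on that scale. With 2 conditions such a likeness says little more than that the size of the change is similar.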

How the data were processed

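RNA-seq of 3 untreated and 3 VPA-treated HEK293T libraries was analysed. Per the study's methods, the authors removed adapters and poor reads (SOAPnuke), mapped to hg38 (STAR, 2.7.10b in the submitters' processing notes), ran htseq-count and deposited raw counts per gene. The annotation and strand setting are not given in the sources used here. The 5 summary lines, 11.8% to 12.7% of each library's total, were left out. Reads with several alignments made up 2.81% to 2.92%.

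Tests used edgeR 4.0.16 (R 4.3.3, TMM, filterByExpr with a count minimum of 10, robust quasi-likelihood fit, condition as the one term, adjusted p under 0.05, log2 fold change of at least 1). SE is the absolute log2 fold change divided by the square root of F. The fit was also run on simulated counts in which few genes changed, as many up as down. In the data many genes changed, mostly upward past the fold threshold, so that run does not bear on the scaling. Alternatives were DESeq2 1.42.0, 4 other scalings, other filters, glmTreat, a replicate block and leaving out each library.

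Coordinates and promoters are from RefSeq (GRCh38.p14), lengths, overlaps and shared windows from GENCODE 44. Named were all members and, per list, the 4 tested genes of smallest p and any up-regulated gene. Some genes outside this rule are also named, among them CIITA, CD74, PSMB8, PTPRC, CSF1R, HLA-G and HLA-F-AS1. 2 genes that this rule selects are not reported here. Members and lists were chosen with earlier results of these data known.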

Additional observations from a re-analysis of the deposited data

How the results depend on the processing

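HLA-B, HLA-F and NLRC5 were up-regulated under each of the alternatives tried, with log2 fold changes of 1.15 to 1.46, 1.96 to 2.28 and 2.10 to 2.48. Of 126 comparisons of the 9 genes with an alternative, 121 kept direction and side of the threshold, 1 was weaker (TAP2 with DESeq2), 4 were stronger (all B2M) and none was reversed. Between 7 and 9 of the 9 genes were higher. The 7 were with DESeq2, where 4239 of all 19502 tested genes were higher. All 9 were higher with ribosomal protein scaling, among others, where 9354 of 15298 tested genes were. Over all tested genes 8.49% to 16.5% were up-regulated in the settings other than glmTreat. With glmTreat, which asks for more, 8 other pathway genes were up-regulated in place of 14. That count was 18 with ribosomal protein scaling, 11 when each library had to hold 10 counts or more, 12 with DESeq2 and 12 to 15 with one library left out. Of the 9 genes TAPBP had the widest range when single libraries were left out, with a log2 fold change of 0.42 without untreated replicate 3 and 0.79 without untreated replicate 1. The median of the 9 genes lay 0.58 above that of all tested genes. A scaling shifts every gene by nearly the same amount, so this difference could hardly change between scalings. The share of higher genes among all called genes was 52.3% with TMM and 91.8% with ribosomal protein scaling. The ratios to B2M kept their direction with 0.5 counts added and with one library left out, but in TAP2 and TAPBP, which overlap between groups, leaving out a single library could move them by over 1.5 times. The TAPBP difference was 0.33 without untreated replicate 3 and 0.77 without untreated replicate 1, where the groups no longer overlapped (exact permutation p = 0.1), and that of TAP2 was 0.032 without VPA replicate 2 and 0.109 without VPA replicate 3. NLRC5, TAPBP, CIITA, PSMB8, CD74, HLA-DRA, HLA-DQA1, HLA-DMA, PSMB9, ERAP2, CD1D and RAET1G, among others, had few counts, which limits the precision of their values.

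With the replicate number as a block, 9 of the 9 genes were higher, as B2M passed with a log2 fold change of 0.078 (adjusted p = 0.044 in edgeR), over all its alternatives 1.54e-06 to 0.659, and 3 were up-regulated. With that block 5357 of all 15298 tested genes were higher and 12% were up-regulated. Over 12196 genes, deviations from the group means gave r = 0.32, 0.087 and 0.24 between same-numbered libraries. Each library correlated best with its own number, a hint from the data, but 1 pair was under 0.1, so the libraries were treated as sharing only a number.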
